A study of Mus musculus with 4 samples.

Results

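The 10 genes described here are Pdcd1, Lag3, Tigit, Havcr2, Btla, Cd96, Cd226, Cd200, Cd274 and Vsir, which are often grouped as immune checkpoint genes of T cells. They were taken from a list of gene symbols, and all peaks of the deposited H3K27ac list that overlapped a gene or 50000 bp on each side of it were counted as its peaks. This gave 153 different peaks for the 10 genes, of 56285 peaks in the whole list, and the 10 are set against the 21631 protein-coding genes of the autosomes and chromosome X. No peak belonged to the windows of more than 1 of these genes. The grouping as inhibitory receptors holds for Pdcd1, Lag3, Tigit, Havcr2, Btla and Cd96. Cd200 and Cd274 encode ligands, Vsir a protein described both as ligand and as receptor, and Cd226 an activating receptor.

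H3K27ac, acetylation of a lysine of histone H3 that is found at active promoters and enhancers, was mapped by ChIP-seq in Th17 cells made in culture, a helper T cell type named for its cytokine IL-17. The starting cells were naive CD4+ T cells (C57BL/6 mice), kept for 72 h with IL-6 at 20 ng/mL, TGF-β at 0.1 ng/mL, anti-CD28 at 1 µg/mL and anti-CD3ε at 0.25 µg/mL, per the treatment labels. For TGF-β the growth protocol states a range instead. There were 2 H3K27ac libraries and 2 input DNA libraries, 1 of each from 2 independent biological replicates, and all 4 come from cells treated in the same way. The names of the peaks carry a WT_Ddx5 tag, and the labels give no genotype beyond the strain. The files used here give 1 list of peak positions for these libraries, with no score and no value per library, so no value below has a replicate error and read depth is unknown. In a list from a population of cells, an acetylated region in a few of the cells and a weakly acetylated region in most of them cannot be told apart. No test was made, since genes and peaks of 1 list are not replicates, and values for all protein-coding genes are given beside those of the 10 genes as a description.

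Several checkpoint receptors, though not all, are induced or raised on T cells after activation. When bound by their ligands, inhibitory checkpoint receptors dampen signals from the T cell receptor and CD28. PD-1, encoded by Pdcd1, carries tyrosine motifs in its tail that recruit the phosphatase SHP-2, and its ligands are PD-L1 (Cd274) and PD-L2 (Pdcd1lg2). TIGIT and CD96 share the ligand CD155 (Pvr) with the activating receptor CD226. LAG-3 is a relative of CD4 that binds MHC class II, TIM-3 (Havcr2) binds galectin-9 among other ligands, BTLA binds HVEM (Tnfrsf14), and CD200 is the ligand of CD200R1. VISTA, encoded by Vsir, is known to bind PSGL-1 (Selplg).

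The labelled cell type was checked against marker genes. All 6 Th17 markers had a peak within 1000 bp of a start, as did all 8 T cell markers, and their acetylated lengths (bases inside peaks in the gene and 50000 bp on each side) ran from 20977 to 50205 bp and from 18886 to 45819 bp. Genes that mark other blood cells had fewer such peaks. A start peak was found at 0 of 5 B cell genes, 1 of 8 myeloid and dendritic genes (Cd14), 1 of 4 NK genes (Nkg7) and 1 of 2 CD8 T cell genes (Cd8b1). On the same measure of the gene and its flanks, the lengths ran from 0 to 15646 bp (Fcgr1) in the myeloid genes, with 13270 bp at Cd14, and from 0 to 20720 bp (Nkg7) in the NK genes. All B cell and myeloid genes lay below all Th17 and T cell markers, while Nkg7 lay above Cd3d (18886 bp), the lowest T cell marker. The bases inside peaks within the genes themselves reached at most 554 bp in the B cell genes and 1236 bp in the myeloid genes, and no peak overlapped Adgre1, Lyz2, Ncr1 or Cd8a. Cd274, Vsir and Havcr2 are also used by myeloid cells, and the part of such cells in their peaks was not tested.

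Each of the 10 genes carried acetylation. All 10 had a peak inside the gene, against 59.7% of protein-coding genes, and all 10 had at least 1 peak in the window of the gene and its flanks, against 77.5%. The number of peaks in the window ran from 7 at Pdcd1 to 24 at Cd226, with a median of 15 peaks over the 10 genes and of 5 over all protein-coding genes. The acetylated length in the window had a median of 25889 bp over the 10 genes, against 4584 bp over all protein-coding genes (quartiles 490 and 10532 bp). From long to short it was 49256 bp at Cd200, 39144 bp at Btla, 33384 bp at Cd226, 29407 bp at Cd274 and 28866 bp at Lag3. The lower ones were 22912 bp at Tigit, 21608 bp at Vsir, 20857 bp at Pdcd1, 12261 bp at Cd96 and 9630 bp at Havcr2. Havcr2 was thus the only 1 of the 10 below the upper quartile of all genes. The percentile among all protein-coding genes had a median of 95.5 over the 10 genes and ran from 72.3 at Havcr2 to 99.4 at Cd200. Against the 200 genes nearest in length to each, the median percentile was 94.5.

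**Figure D1:**
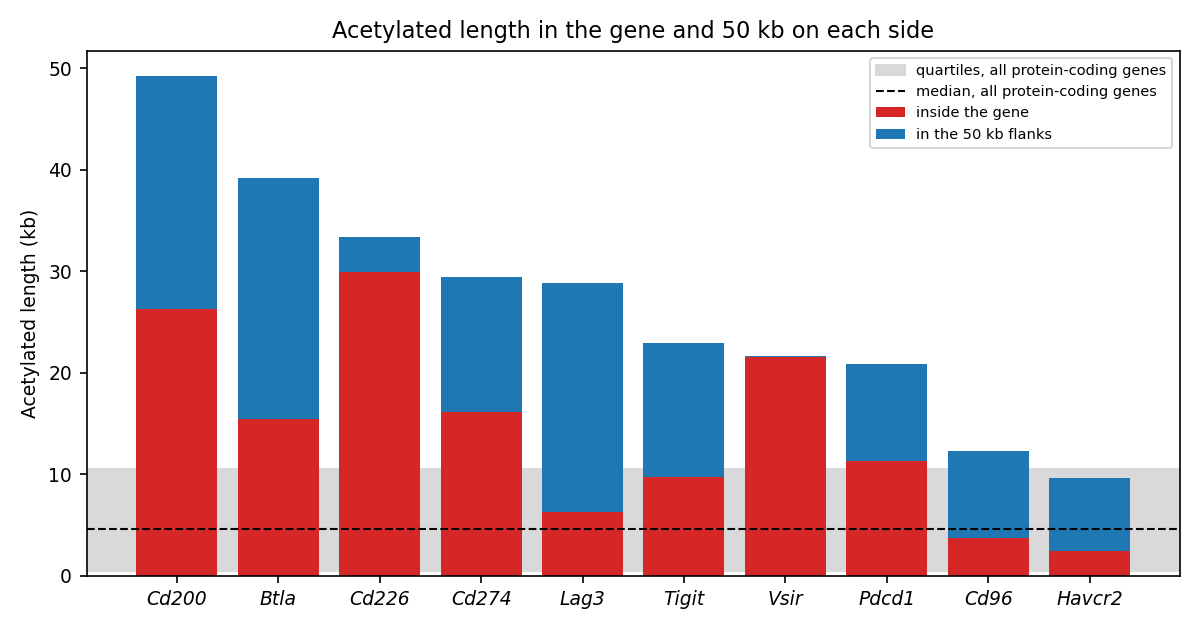
Acetylated length (kb) in each gene (lower, red) and in the 50000 bp flanks on both sides (upper, blue), with the median (dashed) and quartiles (grey) of all 21631 protein-coding genes. Cd200 is at the top with 49256 bp, Havcr2 alone ends inside the grey band with 9630 bp, and Vsir has nearly no acetylation outside the gene.

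The part inside the gene differed widely among the 10. Peaks covered 97.4% of Cd200, 79.3% of Pdcd1, 77.7% of Lag3, 61.9% of Cd274 and 52.9% of Btla. They covered 31.4% of Cd226, 25.8% of Vsir, 9758 of 38989 bp of Tigit, 9.38% of Havcr2 and 4.36% of Cd96. The median over all protein-coding genes was 2.01%. Over the 10 windows together, 142738 of 267325 acetylated bp (53.4%) lay inside the genes. The longest genes, Tigit, Vsir (83444 bp), Cd96 (84597 bp) and Cd226 (95279 bp), had shares from 4.36% to 31.4%. Among the shorter genes, shares ran from 52.9% at Btla (29191 bp) to 97.4% at Cd200 (26950 bp), except at Havcr2 (26325 bp, 9.38%). Whether the shares depend on gene length was not tested.

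The peaks around these genes were often wide. The middle width was 694 bp around the 10 genes and 579 bp in the whole list. The quartiles were 322 and 2275 bp around the 10 genes, against 256 and 1479 bp in the whole list, and 15 of 153 (9.8%) were at least 5000 bp wide, against 2.68% in the whole list. In 71 cases (46.4%) the next peak of the same window followed within 1000 bp, against 38.0% in the whole list. The widest peak that lay entirely in a window was the 21030 bp peak over Cd200.

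Peaks at or near the starts differed strongly in width, and the one at Havcr2 did not cover the start. All 10 genes had a peak within 1000 bp of the start, against 54.2% of protein-coding genes. A start was listed in the reference table for 8 of them, all 8 had such a peak, and the share among genes with a listed start was 55.0%. For Lag3 and Cd226, and for every other gene without a listed start, either annotated end was counted. The 54.2% and the start peaks of other genes named below therefore include some peaks at such ends. The widest peak at the start was 15013 bp at Pdcd1, 13603 bp at Btla, 8745 bp at Cd274, 6462 bp at Lag3 and 5819 bp at Vsir. It was 5023 bp at Cd200, 4008 bp at Cd96, 3789 bp at Tigit, 781 bp at Cd226 and 143 bp at Havcr2. Among all genes with a start peak the median was 1808 bp (quartiles 1182 and 2650.5 bp), so 8 of the 10 lay above the upper quartile and Cd226 and Havcr2 below the lower one. The peak at Havcr2 began 152 bp downstream of the start, and it lay at percentile 0.794 of start peak widths.

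The start regions of 5 of these genes are shown because they carry the widest acetylated starts (Pdcd1, Btla and Cd274), a start at the very edge of a peak (Vsir) and the start with the narrowest peak (Havcr2), the last 2 chosen after their values were seen. Each run covers the 250 bases before and 50 bases from the listed start on, 5′ to 3′ on the strand of the gene, from RefSeq on GRCm38.p6. Capitals mark matches, on either strand, to short motifs of AP-1 (TGANTCA), a cyclic AMP response element (TGACGTCA), STAT factors (TTCNNNGAA), ROR factors (AGGTCA), NFAT (TGGAAA), RUNX (TGTGGT), the GC box (GGGCGG) and the TATA box (TATAAA). Pdcd1 lies at chr1:94052504-94052803 on the minus strand, Btla at chr16:45224087-45224386, Cd274 at chr19:29367188-29367487, Vsir at chr10:60346601-60346900 and Havcr2 at chr11:46454681-46454980, the last 4 on the plus strand.
Pdcd1: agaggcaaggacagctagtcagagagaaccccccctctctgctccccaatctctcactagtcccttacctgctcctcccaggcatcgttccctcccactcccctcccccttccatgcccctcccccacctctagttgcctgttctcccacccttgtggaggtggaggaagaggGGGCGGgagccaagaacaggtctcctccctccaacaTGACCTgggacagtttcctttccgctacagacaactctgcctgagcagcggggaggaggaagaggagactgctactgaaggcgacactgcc
Btla: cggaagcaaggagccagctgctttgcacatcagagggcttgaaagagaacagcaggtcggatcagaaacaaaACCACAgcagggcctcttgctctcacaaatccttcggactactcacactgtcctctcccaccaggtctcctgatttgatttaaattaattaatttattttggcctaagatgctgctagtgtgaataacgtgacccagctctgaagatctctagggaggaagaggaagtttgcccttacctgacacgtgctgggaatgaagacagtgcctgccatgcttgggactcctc
Cd274: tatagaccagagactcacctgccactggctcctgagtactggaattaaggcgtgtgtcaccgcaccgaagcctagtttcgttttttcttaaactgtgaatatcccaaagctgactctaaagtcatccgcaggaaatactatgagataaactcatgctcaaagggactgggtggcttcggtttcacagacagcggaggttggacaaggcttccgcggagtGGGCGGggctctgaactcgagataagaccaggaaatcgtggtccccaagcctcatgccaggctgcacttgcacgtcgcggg
Vsir: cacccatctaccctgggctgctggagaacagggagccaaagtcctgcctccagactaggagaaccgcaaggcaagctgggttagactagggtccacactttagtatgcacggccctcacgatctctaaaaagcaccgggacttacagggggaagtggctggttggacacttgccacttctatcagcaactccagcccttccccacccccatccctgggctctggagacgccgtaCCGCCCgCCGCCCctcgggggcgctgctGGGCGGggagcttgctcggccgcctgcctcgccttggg
Havcr2: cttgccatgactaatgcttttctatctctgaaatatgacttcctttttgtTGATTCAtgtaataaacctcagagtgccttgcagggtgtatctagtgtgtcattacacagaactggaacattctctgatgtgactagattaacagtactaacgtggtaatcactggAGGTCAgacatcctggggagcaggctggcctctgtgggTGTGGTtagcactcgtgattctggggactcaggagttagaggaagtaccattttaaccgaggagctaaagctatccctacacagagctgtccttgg

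The start windows of Pdcd1, Btla and Cd274 lay wholly inside a peak (300 of 300 bases), 103 of 300 bases did so at Vsir and 0 at Havcr2. The whole window was also covered at Cd96 and Tigit, and 204 bases at Cd200, where a gap upstream of the start parted a peak of 5023 bp from one of 1549 bp. RUNX matches were found in 4 of the 8 windows (Btla, Cd96, Havcr2 and Tigit), against 14.7% of 21045 start windows of protein-coding genes. ROR matches were found in 2 (Pdcd1 and Havcr2), against 14.6%. An AP-1 match was found in 1 (Havcr2), against 7.04%, and the response element in 0, against 2.26%. Cd96 held the only STAT, NFAT and TATA box matches, against 7.76%, 19.5% and 12.7%. GC boxes were found in 4 (Cd200, Cd274, Pdcd1 and Vsir), against 46.7%. None of the matches in the 8 windows overlapped another. A match says only that these letters occur in the window.

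Most of these starts, but not those of Cd274 and Vsir, were poor in CpG dinucleotides. The 8 windows held 15 CpG at Cd274 and at Vsir, 8 at Cd200, 5 at each of Btla, Pdcd1 and Tigit, 4 at Cd96 and 3 at Havcr2, with a median of 5. Over all 21045 start windows the median was 13 CpG, so Cd274 and Vsir lay above it. The median was 21 CpG (quartiles 14 and 29) in the 11458 start windows with a peak within 1000 bp and 4 in the 9587 without one. Of the 8 windows, 6 held at most 8 CpG, against 13.2% of all windows with a peak; this limit was chosen with the values known. Over all genes, start peaks at windows with at most 8 CpG had a median width of 1679 bp, and those at windows with more CpG one of 1843 bp.

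Around the listed starts the acetylation reached further into the genes than outwards. The same held on average over all genes with a peak at a listed start. In the bin from 1000 to 1499 bp downstream, 87.5% of bases lay in a peak on average over the 8 genes, against 40.2% over all genes with a peak at a listed start. In the matching bin from 1000 to 1500 bp upstream the shares were 59.9% over the 8 genes and 23.9% over all genes with a peak at a listed start. The 10000 bp downstream held more acetylation than the 10000 bp upstream at 7 of the 8 genes, against 65.1% of genes with a peak at a listed start. Downstream and upstream these lengths were 10000 and 4166 bp at Pdcd1, 10000 and 3575 bp at Btla, and 9366 and 3501 bp at Cd274. They were 9295 and 1703 bp at Cd200, 6654 and 1340 bp at Tigit, 5766 and 53 bp at Vsir, and 2953 and 1055 bp at Cd96. Havcr2 was the exception with 1188 bp downstream and 1921 bp upstream.

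**Figure D2:**
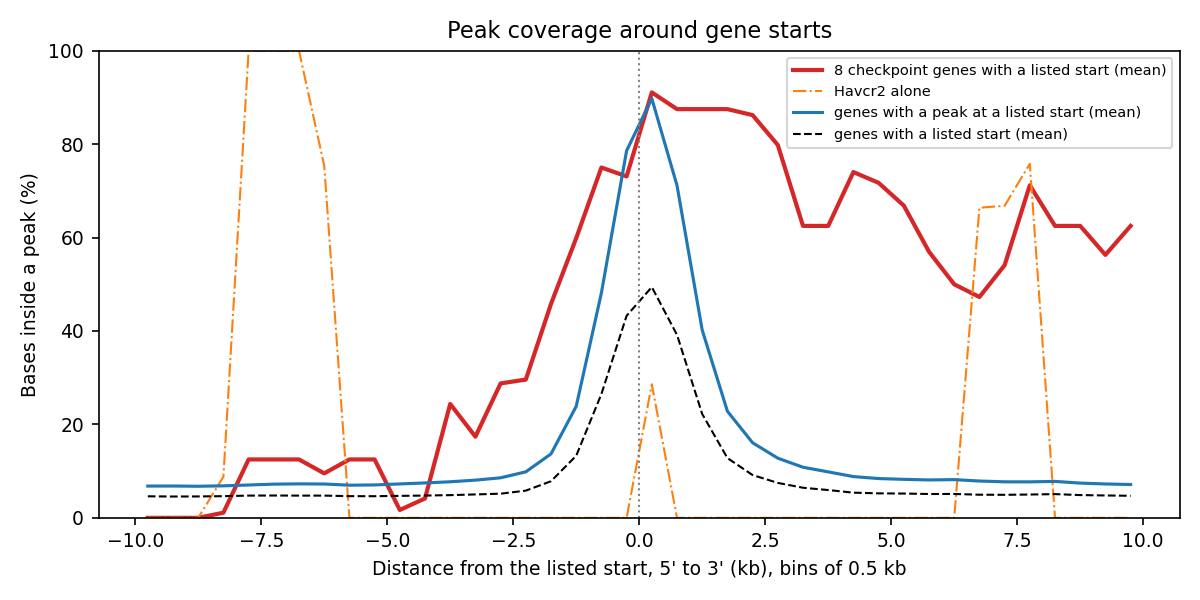
Share of bases inside a peak (%) in bins of 500 bp from 10000 bp before to 10000 bp after the listed start, as the mean of the 8 checkpoint genes with a listed start (red), Havcr2 alone (orange), the mean of genes with a peak at a listed start (blue) and of all genes with one listed (dashed). The red curve stays at 87.5% in the bin from 1000 to 1499 bp, where the blue one is at 40.2%.

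In the PD-1 axis, the receptor gene Pdcd1 (chromosome 1, 94038305 to 94052553, GRCm38) lay under 1 dominant peak of 15013 bp (94041607 to 94056619) that covered most of the gene and reached upstream of its start. A further peak of 3820 bp lay past the end of the gene. No other protein-coding gene lay nearer to any of its 7 peaks, and the neighbours Neu4 and Gal3st2c had no peak inside them. A stretch of 44891 bp with no peak bordered this cluster on the side of the gene's end. The ligand gene Cd274 (chromosome 19, 29362107 to 29388095) was denser, with 23 peaks in its window, 11 of them overlapping the gene. Its widest peak (8745 bp, 29365252 to 29373996) spanned the listed start, which lies inside the annotated gene. Plgrkt overlaps this end of Cd274, so 3 of the 23 peaks touched both genes. Pdcd1lg2, the gene of the second PD-1 ligand, begins 22823 bp beyond Cd274. It had 12482 acetylated bp inside the gene and 33982 bp in its own window, yet no peak at its start, and 6 peaks inside it fell in the Cd274 window. Between Cd274 and Pdcd1lg2 there were 4 peaks that covered 12.5% of the interval. Neither ligand is made by T cells alone, and both are known on antigen presenting cells.

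Among the receptors of CD155, the activating Cd226 had the longest acetylated length with flanks of 50000 bp. Cd226 (chromosome 18, 89176954 to 89272232) held 22 peaks inside the gene, with 29932 of its 33384 acetylated bp. They ran from 89196387 to 89258153, and both ends of the annotated gene were free of peaks. The peak that counts at an annotated end (781 bp) lay 281 bp beyond the high-coordinate end, and the widest peak of the gene (6049 bp, 89196387 to 89202435) lay inside. Tigit (chromosome 16, 43626137 to 43665125) had 22912 bp in 18 peaks. A peak of 3789 bp (43661736 to 43665524) spanned its start, and peaks of 240, 1474, 3480, 154 and 1020 bp followed inside the gene. Upstream, a separate group of 5 peaks began between 24947 and 42782 bp beyond the annotated gene, with the widest of 5132 bp (43695344 to 43700475), and Tigit was the nearest protein-coding gene to all of them. Downstream, Zbtb20 overlaps the end of Tigit, and 7 of the 18 peaks lay within Zbtb20 alone. Cd96 (chromosome 16, 46035652 to 46120248) had acetylation inside the gene only near its start, with a peak of 4008 bp (46117296 to 46121303) and small ones of 226 and 506 bp that began 12028 and 12386 bp into the gene. The longest stretch without a peak, 84788 bp, took in the rest of the gene. The other 6 of its 9 peaks lay nearest to Plcxd2, so that only 4740 of 12261 bp were nearest to Cd96.

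Lag3 (chromosome 6, 124904359 to 124912434) lay in a row of acetylated genes. Its gene carried 2 peaks, one of 6462 bp (124906698 to 124913159) over the high-coordinate end and one of 1197 bp (124903700 to 124904896) over the low-coordinate end, and a peak of 3565 bp lay just beyond the second. Its neighbour Cd4, whose product LAG-3 resembles, lies 16111 bp away and had a peak of 9436 bp over its high-coordinate end. The interval between Cd4 and Lag3 held 6 peaks that covered 37.6% of it, and the 1240 bp between Lag3 and Ptms were 75.6% covered. Of the 15 peaks in the Lag3 window, 12 lay nearer to another gene, and 11224 of 28866 bp were nearest to Lag3 alone. Cd4, Ptms, Mlf2, Gpr162, P3h3 and Cops7a all had a peak within 1000 bp of a start. Where no start is listed for them, either annotated end was counted.

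Havcr2 (chromosome 11, 46454931 to 46481255) had the shortest acetylated length of the 10 with flanks of 50000 bp and within the gene. With flanks of 20 kb Cd96 was lower (5077 bp, against 6032 bp at Havcr2), and with flanks of 100 kb Havcr2 had 58598 bp. Inside the gene lay 5 peaks of 143, 585, 460, 648 and 634 bp, 2470 bp in all, and the 50000 bp beyond its end held none. The other 8 of its 13 peaks lay upstream and nearer to another gene. The closest of these, of 1921 bp (46446887 to 46448807), lay between Med7 and Havcr2, 4166 bp from Med7.

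Btla and Cd200 are neighbours on chromosome 16 and had the longest acetylated lengths of the 10 with flanks of 50000 bp. With flanks of 20 kb Btla (21705 bp) came after Cd226 (33384 bp) and Lag3 (21834 bp), and within the gene alone Cd226 (29932 bp) was above Cd200 (26245 bp). Btla (45223705 to 45252895) had a peak of 13603 bp over its start (45221839 to 45235441) and one of 4063 bp over its end. Beyond the end, a group of 5 wide peaks of 2548, 6024, 1150, 6515 and 6654 bp began 29981 bp away, the last of them with 644 bp inside the window. Cd200 (45382111 to 45409060) was covered by peaks of 21030, 3682 and 5023 bp. A further 15 peaks followed downstream, the farthest of them a peak of 4598 bp with 1291 bp inside the window. No protein-coding gene lies in the 129215 bp between Btla and Cd200, and 26 peaks covered 55883 bp (43.2%) of this interval. On the far side of the Cd200 start, a peak of 1549 bp lay between Cd200 and Gm609, within 1000 bp of both starts, and the next 48175 bp had none.

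Vsir (chromosome 10, 60346851 to 60430294) had all of its 10 peaks inside the gene. The peak at its start (5819 bp, 60346798 to 60352616) began 53 bp upstream of it, and no other acetylation lay in the 50000 bp upstream. The next 8 peaks, from 60370217 to 60397011, included 2 of 5004 and 3870 bp. Behind the last peak, 81173 bp to the end of the window had none. Vsir lies within the larger gene Cdh23, so each of its peaks touched both genes, and the peak list cannot assign them to either.

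**Figure D3:**
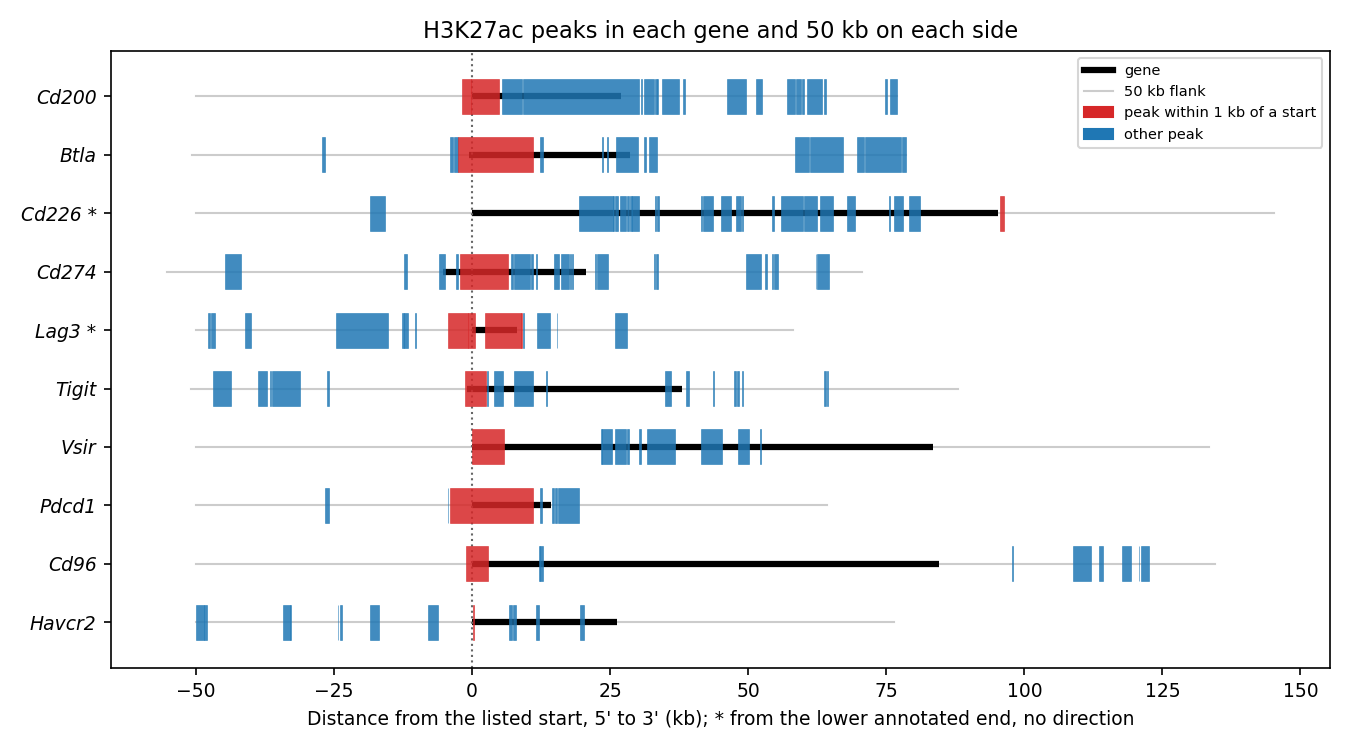
Map of the peaks in each gene and its 50000 bp flanks, by distance from the listed start in kb, 5′ to 3′ (for Lag3 and Cd226, marked with a star, from the lower annotated end with no direction). Black bars are genes, red boxes are peaks within 1000 bp of a start or counted end, and blue boxes are other peaks. Wide red boxes stand at Pdcd1 (15013 bp) and Btla (13603 bp), and a thin one at Havcr2 (143 bp).

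Windows of 50000 bp take in peaks of neighbours. Of the 153 peaks, 95 had the checkpoint gene as their only nearest protein-coding gene, 14 touched it and another gene equally, and 44 were nearest to another gene. Counting only the 95 peaks left 189088 of 267325 acetylated bp. All peaks of Pdcd1, Cd226 and Cd200 were in this class and none of Vsir were.

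Long clusters of peaks overlapped most of these genes. Neighbouring peaks were joined across gaps up to the stitching distance customary for super-enhancers, and clusters with more than 13241 covered bp, where the ranked curve of cluster lengths turns steep, were counted as acetylated domains (826 of 18748 clusters). A domain overlapped 7 of the 10 genes, against 6.37% of protein-coding genes. Cd200 had the longest, with 54777 covered bp in 20 peaks, the 48th of all clusters. Clusters at Cd226 (29932 bp), Lag3 (26601 bp, shared with Cd4, Ptms and Mlf2), Btla (21705 bp), Cd274 (20241 bp, shared with Plgrkt), Pdcd1 (20099 bp) and Vsir (15789 bp, shared with Cdh23) followed. Below the limit were Tigit with 9137 bp, Havcr2 with 7850 bp (shared with Med7) and Cd96 with 4740 bp. Without the peaks at starts or ends of genes, only Vsir and Cd226 were left in a domain. No share of all protein-coding genes is given for this setting, so this count cannot be set against theirs.

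Other genes of these pathways were examined as lists. Of 21 ligands and partners, 12 had a start peak and 1 (Selplg) lay in a domain, shares near the 54.2% and 6.37% of all protein-coding genes, and the median acetylated length was 7089 bp. The longest were 33982 bp at Pdcd1lg2, 26164 bp at Selplg and 17944 bp at Cd200r1, which encodes the receptor of CD200. The related receptor genes Cd200r2, Cd200r3 and Cd200r4 had no start peak. The ligand genes Pvr (15601 bp) and Lgals9 (9895 bp) and the HVEM gene Tnfrsf14 (9451 bp), named as partners of the 10 genes, each had a start peak. Ceacam1 (836 bp), Fgl1 (2300 bp), Igsf11 (0 bp), Nectin1 (854 bp), Nectin4 (13850 bp) and Pdcd1lg2, in the same list, had none. All 13 signalling partners had a start peak and 6 lay in a domain, with a median of 21742 bp. Cblb (45554 bp), an E3 ubiquitin ligase that restrains T cell activation, the kinase gene Fyn (43368 bp) and Ptpn6 (35010 bp), which encodes the phosphatase SHP-1, were the longest.

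Of 13 other inhibitory receptors and related surface genes, 9 had a start peak and 3 lay in a domain, with a median acetylated length of 5540 bp. The longest were Cd6 (84657 bp), Cd5 (73782 bp) and Ctla4 (61106 bp). The other 6 genes with a start peak ran from 5341 bp at Nt5e to 14331 bp at Entpd1, named as the ends of that range. Cd244a (2010 bp), Klrg1 (2693 bp), Lair1 (3970 bp) and Pvrig (0 bp) had no start peak. The median of 25889 bp of the 10 checkpoint genes stood against 40867 bp for 9 costimulatory receptor genes, all of which had a start peak and lay in a domain. This order held for the windows only. Inside the genes alone the median was 13364 bp for the checkpoint genes and 11466 bp for the costimulatory ones. In the windows, the longest costimulatory genes were Icos (53544 bp), Cd28 (45819 bp) and Tnfrsf18 (41844 bp). The windows of neighbouring genes overlap for Cd5 and Cd6, for Icos and Ctla4, and for Tnfrsf18 and Tnfrsf4, so these values are not independent of each other. Of 15 transcription factors linked to checkpoint expression in T cells, all had a start peak and 9 lay in a domain, with a median of 24734 bp, led by Bach2 (211813 bp), Nfatc2 (53448 bp) and Irf4 (51913 bp).

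**Figure D4:**
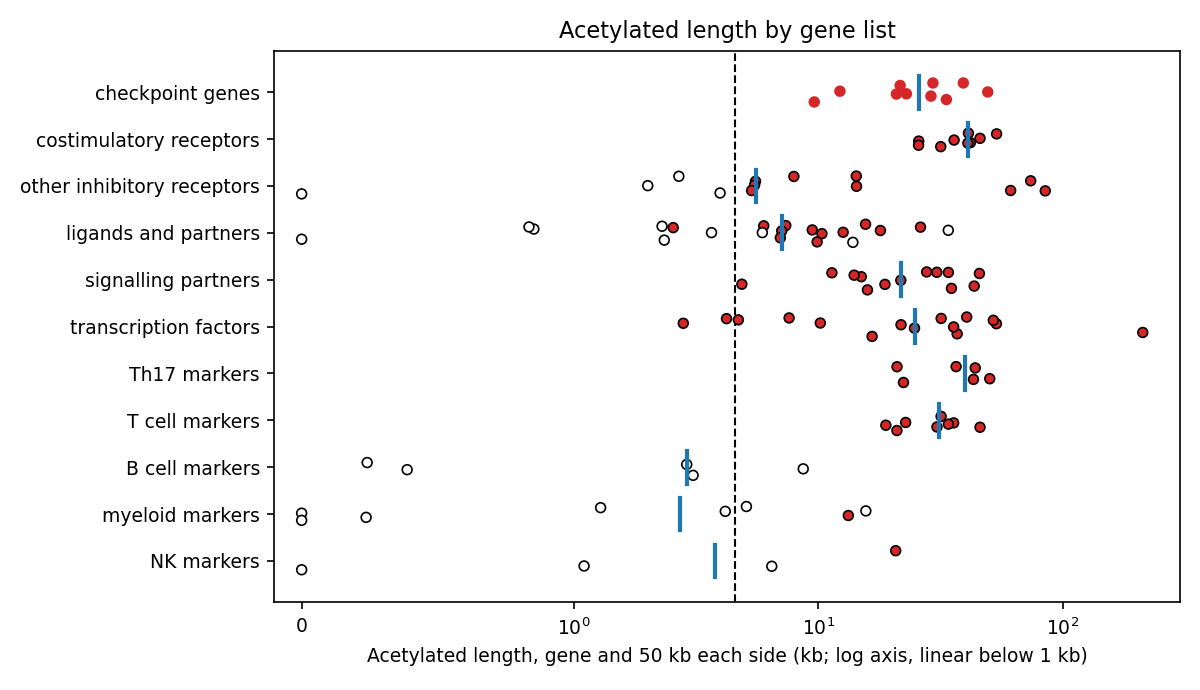
Acetylated length (kb, log axis that is linear below 1 kb) of each gene and 50000 bp on each side, by list. Filled points have a start peak, open points have none, blue bars are list medians and the dashed line is the median of all protein-coding genes (4584 bp). The checkpoint genes are all filled with a median of 25889 bp, the costimulatory receptors lie at a median of 40867 bp, and B cell markers are all open.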

How the data were processed

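H3K27ac and input DNA libraries of Th17 cells are covered by 1 peak list. Per the submitters' processing notes, the tools were MACS2 2.2.6, deepTools, SAMtools 1.9 and Bowtie2 2.3.4.1, with GRCm38 (mm10) as the build. Each replicate's own input served in peak calling (series' design text). Neither a threshold nor a filter, nor whether replicates were pooled, is stated in those sources. The authors deposited 1 list with chromosome, start, end and a name for each peak, and no other value. Starts were read as counted from 0 and are printed counted from 1. The single peak on chromosome Y was left out.

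Genes were taken from a RefSeq table of GRCm38.p6 by symbol, and all 10 genes and all listed genes matched. Starts came from a RefSeq table of start sequences, which lists none for Lag3 and Cd226. For these and all other genes without a listed start, either annotated end was used. Overlap meant at least 1 bp. A percentile is the share of protein-coding genes with a lower value plus those tied, counted at 0.5 each. The design held no test. The 10 genes, the lists and the motifs were chosen with earlier results of these data known. The rule for naming genes of a list was at most 3 that rank highest by acetylated length and at most 3 without a start peak, taken alphabetically. Others were added with their values known. These were Pvr, Lgals9 and Tnfrsf14 as known partners, and Entpd1 and Nt5e as ends of a range. Pvrig and the remaining ligands and partners without a start peak were also added, so that those lacking one are all named in these lists. Interval counts were tested on simulated data. Python 3.11.15, numpy 2.4.6, pandas 2.3.3 and matplotlib 3.10.9 were used. Alternatives covered flanks, start windows, peak width, merging, midpoints, stitching and background, and others were added after seeing the data.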

Additional observations from a re-analysis of the deposited data

How the results depend on the processing

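With only peaks of at least 500 bp the count of peaks around the 10 genes was 89, and with peaks merged across 1000 bp it was 82, against 153 as reported. The acetylated length was 142738 bp inside the genes alone, against 267325 bp with flanks. A start peak was counted at 5 genes when the midpoint of the peak had to lie in the window, at 9 with peaks of at least 500 bp (Havcr2 lost), and at 10 with windows of 500 or 2500 bp. Without peaks at starts or ends of genes 2 genes lay in a domain, and 66 peaks of at least 500 bp were nearest to or touching a checkpoint gene, against 109. For these changed settings of start peaks and domains, no share of all protein-coding genes is given. The median percentile ran from 94.5 to 97.5 over 6 alternatives, against 95.5 as reported. With the wider flanks tried the percentile of Pdcd1 was 79.8, of Cd96 62.0 and of Havcr2 98.8. No paired analysis was possible because the list holds no value per library, and for the same reason no replicate could be left out. Read depth is unknown, and width stood in for a stricter threshold because the list gives no score.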

Other observations

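The names of the peaks hold a running number that reaches 71449, above the 56285 peaks in the list used here, so 21.2% of the numbers do not occur in it. Within the runs of numbers spanned by the 10 windows, 40 of 193 numbers (20.7%) do not occur. What these numbers stood for is not stated in the labels.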
